A study of Homo sapiens with 12 samples.

Results

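Amino acid transporters were followed through oncogene-induced senescence (OIS) and XPO7 knockdown in human fibroblasts. They were taken as the protein-coding genes of the count table whose symbols begin with SLC1A, SLC3A, SLC7A, SLC36A, SLC38A or SLC43A followed by a number, which gave 40 of 62069 genes. Of these, 27 passed edgeR's filter on low counts and were tested with 15284 genes in all. RNA-seq counts came from 12 libraries of IMR90 ER:RAS cells, which are human lung fibroblasts with a RAS protein joined to an estrogen receptor fragment, which 4-hydroxytamoxifen (4OHT) switches on. The 4 groups of 3 libraries were vector, which is the non-induced control (replicates T, A and C), and vector/4OHT, shXPO7_3/4OHT and shXPO7_5/4OHT (replicates T, A and B each). The 3 induced groups had received 100 nM 4OHT and were taken on day 5 of induction, and the last 2 carried one of a pair of shRNAs against the nuclear transport receptor XPO7. All groups were cells of 1 fibroblast strain at passage 13, kept for 7 days in culture with a medium change on day 4. The name vector comes from the study's own scheme, since the labels call these cells only non-induced or induced. RAS was induced in every knockdown group, and no knockdown without 4OHT was analysed here. The labels do not say whether the 3 libraries of a group were separate cultures, so the p-values here speak only for the spread among these libraries, which could be technical in part or whole.

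Heavy chains of the SLC3 family and light chains of the SLC7 family work in pairs. A heavy chain, such as the CD98 heavy chain encoded by SLC3A2, carries a light chain to the cell surface, and the light chain decides which amino acids are exchanged. The cationic amino acid transporter branch of SLC7, in which SLC7A1, SLC7A2 and SLC7A14 are placed, is not counted among these light chains. Carriers of the SLC1, SLC36, SLC38 and SLC43 families work without a heavy chain and use sodium, protons or the gradient of the substrate, and several sit on lysosomes, where amino acid supply is read by the mTORC1 pathway. Senescent fibroblasts are known for a large secretome, whose synthesis needs amino acids.

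Levels are CPM, the count scaled to a common library size with TMM factors, and between genes they were compared only per length, as RPKM over the joined exons of each gene. Total counts per library ran from 28534141 to 60397769. The summed level of the 40 transporters was 1734 to 2033 CPM in vector, 1994 to 2118 CPM in vector/4OHT, 1916 to 2165 CPM in shXPO7_3/4OHT and 1945 to 2047 CPM in shXPO7_5/4OHT, so that the ranges overlapped between the groups. XPO7 itself was 127 to 144 CPM in vector/4OHT, 26.4 to 28.6 CPM in shXPO7_3/4OHT and 50.8 to 54.0 CPM in shXPO7_5/4OHT, in the direction of the labels. Summed fibroblast markers were at 24427 to 28165 CPM in vector and 17150 to 18613 CPM in vector/4OHT, and all 10 markers had counts. Of these, 0 were called higher and 5 lower in OIS (0% and 50%, beside 24.8% and 26.1% of all genes tested). The falls were led by the matrix genes DCN and COL1A2, which fell by 3.37 and fell by 1.16 on the log2 scale. FAP was above vector in all 3 vector/4OHT libraries (139 and 200.2 CPM as means) and was not called. Summed epithelial markers were at 37.1 to 43.1 CPM in vector and 3.20 to 4.88 CPM over the induced groups (KRT19 33.6 and 2.01 CPM as means of vector and vector/4OHT), endothelial markers at 14.6 to 15.0 and 8.93 to 11.99 CPM (TEK 12.4 and 6.31, VWF 2.22 and 3.14 and KDR 0.236 and 0.339 CPM as means of the same groups, only TEK called), and blood cell markers at 0.303 to 0.821 CPM over all groups. Of the 5 markers in each of these lists, 1 epithelial, 2 endothelial and 1 blood cell marker had no count in any library. The libraries also differed in a trend with the GC content of transcripts, described below with SLC7A11, which was strongest in shXPO7_5/4OHT replicates B and T and shXPO7_3/4OHT replicate T. The part of these differences in the transporter results was not tested, and in bulk RNA fewer cells of a type and less RNA per cell cannot be told apart.

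**Figure D1:**
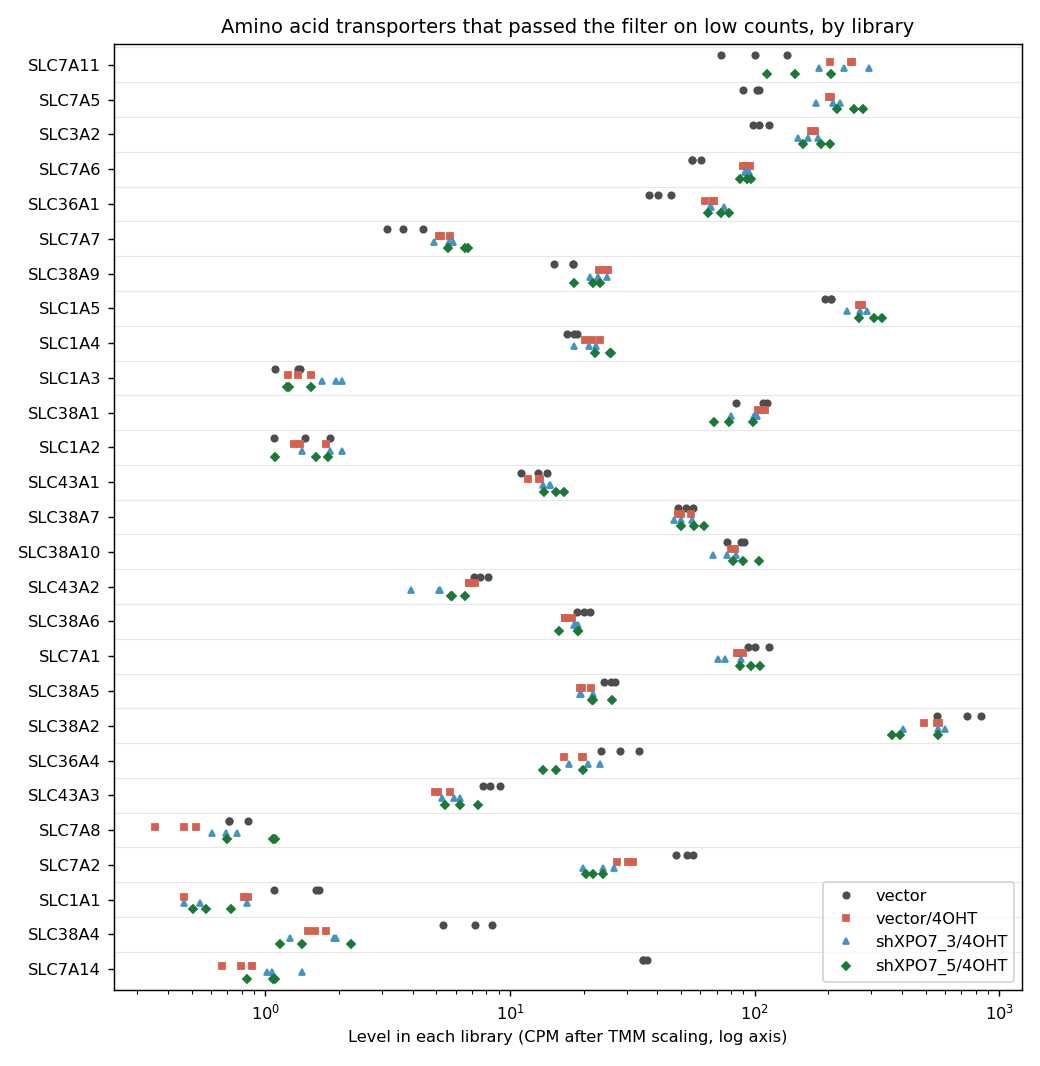
Level of each of the 27 tested transporters (rows, ordered by their log2 fold change in OIS) in each of the 12 libraries, in CPM after TMM scaling on a log axis, with a symbol and color for each group. The vector libraries of SLC7A14 stood at 34.9 to 36.4 CPM, apart from the induced libraries at 0.665 to 1.42 CPM.

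Per length, SLC38A2, a sodium-coupled carrier of small neutral amino acids, was the highest transporter of the non-induced cells, at 108 ± 22.2 RPKM (SD, n = 3). SLC1A5, the main surface carrier of glutamine, followed at 60.5 ± 1.997 RPKM (SD, n = 3). Next came SLC7A5, the light chain for leucine and other large neutral amino acids, at 20.9 ± 1.69 RPKM, and SLC3A2 at 20.4 ± 1.59 RPKM (SD, n = 3 each), which did not differ beyond their spread. In vector/4OHT, SLC38A2 stood at 81.7 ± 6.03 and SLC1A5 at 81.0 ± 1.39 RPKM (SD, n = 3 each), a difference smaller than the spread. SLC7A5 followed at 42.7 ± 0.389 RPKM, SLC3A2 at 33.4 ± 0.639 RPKM and SLC7A11 at 24.2 ± 2.74 RPKM (SD, n = 3 each). Both ties and the place of SLC3A2 depended on the length used. By the longest transcript of each gene, SLC3A2 was at 47.6 and SLC7A5 at 21.8 RPKM in vector. In vector/4OHT SLC38A2 was then at 110 RPKM, SLC1A5 at 93.7 RPKM, SLC3A2 at 77.8 RPKM and SLC7A5 at 44.7 RPKM. At the other end were the light chain SLC7A8 and the glutamate carriers SLC1A1, SLC1A2 and SLC1A3, at 0.0639 to 0.362 RPKM in vector.

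The 13 transporters left out by the filter were SLC1A6, SLC1A7, SLC3A1, SLC7A3, SLC7A4, SLC7A9, SLC7A10, SLC7A13, SLC36A2, SLC36A3, SLC38A3, SLC38A8 and SLC38A11. SLC7A10, SLC7A13 and SLC38A8 had no count in any library. The others had 1 to 88 counts over all 12 libraries together, the highest being SLC3A1, the heavy chain of the kidney cystine transporter, with 26 of its 88 counts in vector replicate T. No fold change is given for them.

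The first comparison asked what RAS induction did to the transporters (vector/4OHT against vector). Of the 27 tested, 9 were called higher, beside 24.8% of all genes tested, and 9 were called lower, beside 26.1% of all genes (edgeR's quasi-likelihood test, adjusted p under 0.05). Changes of at least 1 on the log2 scale were called in 2 transporters upward, SLC7A11 and SLC7A5, beside 6.78% of all genes. They were called in 3 downward, SLC7A14, SLC38A4 and SLC1A1, beside 10.1% of all genes. The median log2 fold change of the transporters was -0.03, and that of all genes was -0.0068. The 9 called each way were 33.3% of the transporters tested, and the shares of all genes stand beside them only as a measure of how common a call was.

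**Figure D2:**
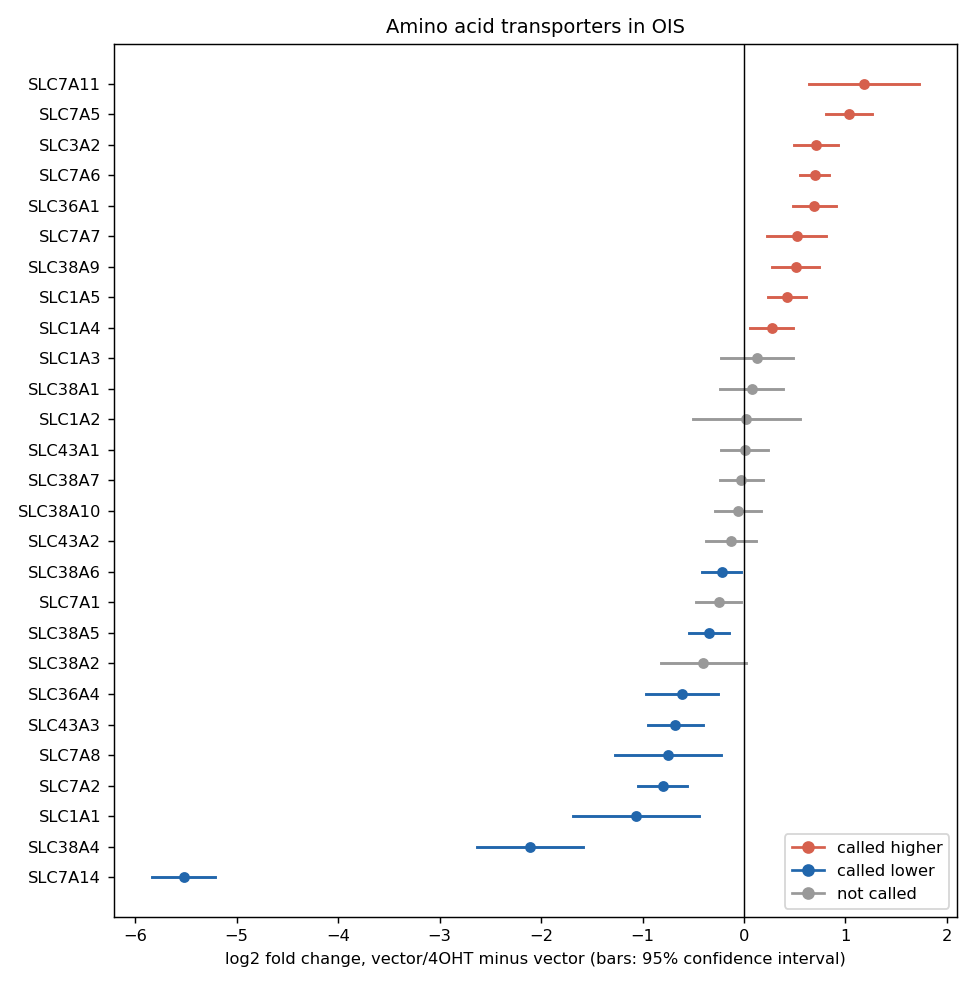
Log2 fold change of the 27 tested transporters in OIS (vector/4OHT minus vector, points) with 95% confidence intervals (bars), colored by the call at an adjusted p under 0.05. Of the 27, 9 were called higher and 9 lower, and SLC7A14, at -5.52, lies far below the others.

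SLC7A14 (ENSG00000013293) gave the largest change. It encodes a lysosomal membrane protein placed by sequence in the cationic amino acid transporter branch of SLC7 and is best known from brain and retina. The gene lies on chromosome 3, from 170459584 to 170586074 on the minus strand (GRCh38, GENCODE release 29). It was at 34.9, 36.4 and 34.9 CPM in vector replicates T, A and C, and at 0.792, 0.886 and 0.665 CPM in vector/4OHT replicates T, A and B. The non-induced libraries held 1130 to 1499 counts of it and the vector/4OHT libraries 25 to 33, and the groups lay far apart. This was a 46.0-fold lower level, or -5.52 on the log2 scale (standard error 0.14, adjusted p = 4.17e-11, edgeR's quasi-likelihood test), and 3 of the 15284 genes tested fell further. Per length it went from 3.38 ± 0.0821 to 0.0747 ± 0.0106 RPKM (SD, n = 3 each). In the knockdown groups it was 1.01, 1.42 and 1.06 CPM with shXPO7_3 (replicates T, A and B) and 1.08, 0.845 and 1.09 CPM with shXPO7_5. All 3 shXPO7_3 libraries were above all 3 of vector/4OHT, and all 6 knockdown libraries stayed far below those of vector. Against vector/4OHT the log2 differences were 0.58 for shXPO7_3 (95% confidence interval 0.22 to 0.94, adjusted p = 0.317) and 0.39 for shXPO7_5 (95% confidence interval 0.0079 to 0.77, adjusted p = 0.239, edgeR's quasi-likelihood test), and neither was called. The sequence around its RefSeq start is shown because this gene carried the largest change. The window is chr3:170586026-170586325 (GRCh38.p14, minus strand), 250 bases before and 50 after the start, and it holds no match to the motifs searched further on.
SLC7A14: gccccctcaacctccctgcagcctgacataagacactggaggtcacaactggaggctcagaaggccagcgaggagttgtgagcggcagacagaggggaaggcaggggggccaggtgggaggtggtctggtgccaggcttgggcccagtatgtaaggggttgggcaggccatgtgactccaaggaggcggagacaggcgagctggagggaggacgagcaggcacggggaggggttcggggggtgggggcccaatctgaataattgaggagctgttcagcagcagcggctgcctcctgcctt

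Of the 3 tested members of the cationic branch, SLC7A14 included, 0 were called higher in OIS and 2 lower. These were 0% and 66.7%, beside 24.8% and 26.1% of all genes tested. SLC7A2, which takes up arginine and lysine, was 47.6, 52.8 and 55.7 CPM in vector and 30.4, 31.8 and 27.4 CPM in vector/4OHT. Its groups did not overlap (log2 fold change -0.80, standard error 0.11, adjusted p = 7.35e-05, edgeR's quasi-likelihood test). SLC7A1, the widespread carrier of the same amino acids, was at 103 CPM in vector and 86.4 CPM in vector/4OHT as means, with all induced libraries below the non-induced ones, and was not called (log2 fold change -0.25, adjusted p = 0.056). It was called in 6 of 14 alternative analyses, over which the adjusted p ran from 0.0052 to 0.212.

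The heavy chain and most of its partners went the other way. SLC3A2 (ENSG00000168003; chromosome 11, 62856102 to 62888875, plus strand) was 115, 104 and 98.7 CPM in vector and 169, 173 and 176 CPM in vector/4OHT. It was higher by 0.71 on the log2 scale (standard error 0.098, adjusted p = 6.71e-05, edgeR's quasi-likelihood test), with no overlap. All 5 light chains that were tested changed, 4 of them higher and 1 lower (80% and 20%, beside 24.8% and 26.1% of all genes). The other heavy chain, SLC3A1, was among the genes left out by the filter.

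SLC7A5 (ENSG00000103257; chromosome 16, 87830023 to 87869488, minus strand), the leucine exchanger LAT1 when paired with SLC3A2, was 105, 103 and 89.7 CPM in vector and 203, 201 and 205 CPM in vector/4OHT. The induced libraries lay close together and 2.05-fold above the others (log2 fold change 1.03, standard error 0.10, adjusted p = 4.20e-06, edgeR's quasi-likelihood test). SLC7A6 and SLC7A7, which exchange cationic for neutral amino acids, were higher by 0.70 (57.1 to 92.6 CPM as means, adjusted p = 2.46e-06) and 0.52 (3.73 to 5.35 CPM, adjusted p = 0.0059), and in both no library overlapped. SLC7A8, a light chain for neutral amino acids with a range like that of SLC7A5, was the one called lower. It was low throughout, at 0.710, 0.850 and 0.708 CPM in vector and 0.519, 0.354 and 0.464 CPM in vector/4OHT, or 10 to 35 counts per library (log2 fold change -0.75, standard error 0.24, adjusted p = 0.0211). Its call was lost in 5 of 13 alternative analyses, without vector replicate A (adjusted p = 0.0732), without vector/4OHT replicate A (adjusted p = 0.0754), with DESeq2 (adjusted p = 0.0713), with no filter beyond 1 count (adjusted p = 0.0632) and with the replicate letter as a block together with offsets for GC content and length (adjusted p = 0.0712).

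SLC7A11 (ENSG00000151012; chromosome 4, 138164097 to 138242349, minus strand) encodes the light chain xCT, which brings in cystine for glutathione synthesis in exchange for glutamate. It had the largest rise of all 27, from 73.1, 101 and 135 CPM in vector to 250.2, 248 and 203 CPM in vector/4OHT. The groups did not overlap, but its standard error was the largest of the 9 transporters that rose (log2 fold change 1.18, standard error 0.25, adjusted p = 0.00173, edgeR's quasi-likelihood test). In the same groups the level moved with a library-wide trend on GC content. In each library, the log2 ratios of 14864 genes to their mean in vector/4OHT were correlated with the GC content of their transcripts. Genes are not independent replicates, and this correlation (Spearman) is given only as a description. It was 0.306, 0.125 and -0.0505 in vector replicates T, A and C, and -0.178, -0.208 and 0.317 in vector/4OHT replicates T, A and B. In both groups the library with the highest correlation had the lowest SLC7A11, whose transcripts are 35.9% GC. With the trend on GC content and length removed as offsets, SLC7A11 was higher by 1.02 (adjusted p = 5.68e-08, edgeR's quasi-likelihood test). In that fit 65.1% of all genes tested were called, beside 50.9% in the analysis reported, so calls grew in number over all genes. What part the trend had in the rise of SLC7A11 was not tested.

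**Figure D3:**
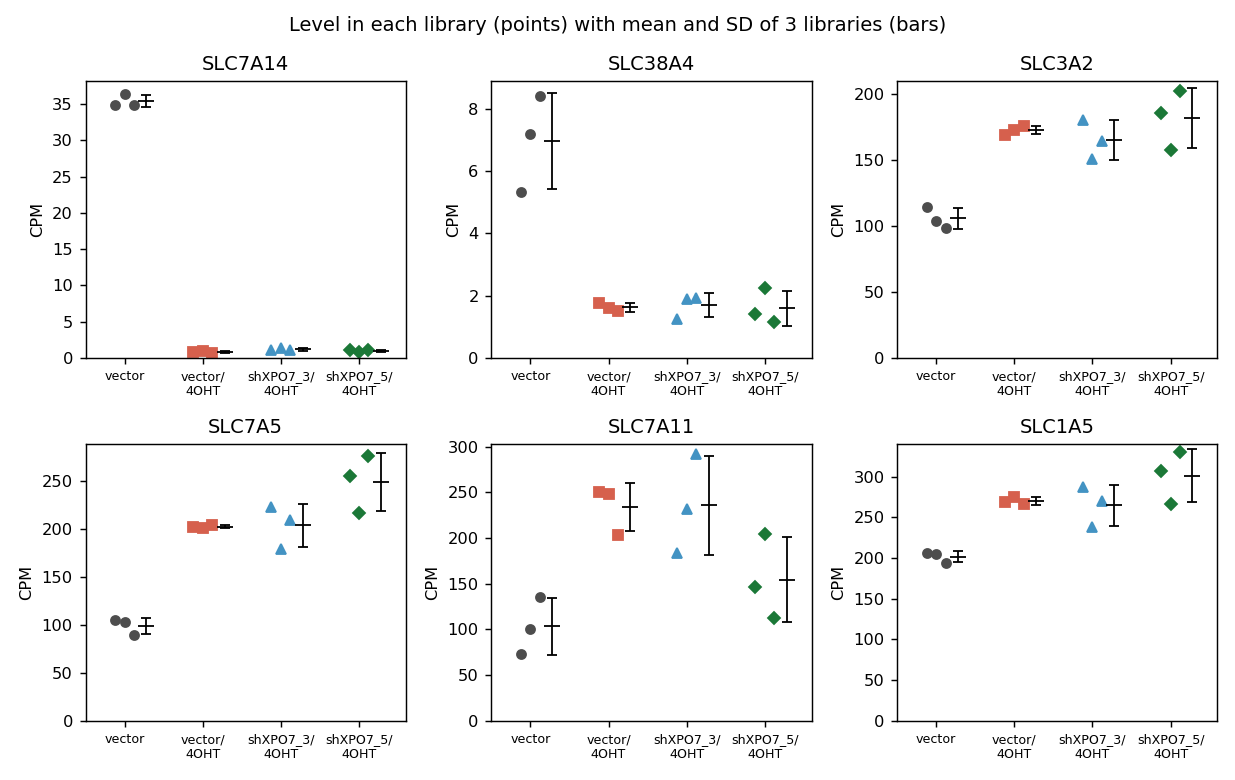
CPM in each library (points, replicates in label order) with the mean and SD of 3 libraries (bars) for 6 transporters, each panel with its own linear axis from 0. SLC7A14 and SLC38A4 drop from vector to the 3 induced groups, SLC3A2, SLC7A5, SLC7A11 and SLC1A5 stand higher in vector/4OHT than in vector without overlap, and SLC7A11 spreads from 112 to 292 CPM over the knockdown libraries.

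Among the sodium-coupled carriers of the SLC1 family, 2 of 5 tested rose and 1 fell (40% and 20%, beside 24.8% and 26.1% of all genes). SLC1A5 (ENSG00000105281; chromosome 19, 46774883 to 46788594, minus strand) was 206, 205 and 194 CPM in vector and 269, 275 and 266 CPM in vector/4OHT, with no overlap (log2 fold change 0.42, standard error 0.087, adjusted p = 0.00144, edgeR's quasi-likelihood test). SLC1A4, which carries serine, alanine and threonine, rose by 0.27 (18.0 to 21.8 CPM as means, adjusted p = 0.0337), a call that was lost in 8 of 14 alternative analyses. SLC1A1, a glutamate and cysteine carrier, was 1.08, 1.65 and 1.61 CPM in vector and 0.819, 0.850 and 0.464 CPM in vector/4OHT. With shXPO7_3 it was 0.466, 0.845 and 0.539 CPM and with shXPO7_5 0.505, 0.724 and 0.573 CPM. The vector and vector/4OHT libraries did not overlap, at 23 to 68 counts each (log2 fold change -1.07, standard error 0.28, adjusted p = 0.00759). The glutamate carriers SLC1A2 and SLC1A3 were at 1.08 to 1.84 CPM in these libraries and overlapped between the groups.

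In the SLC38 family, 1 of 8 tested members was called higher and 3 lower (12.5% and 37.5%, beside 24.8% and 26.1% of all genes tested). SLC38A4 (ENSG00000139209; chromosome 12, 46764761 to 46832408, minus strand), a carrier of neutral and some cationic amino acids, had the second largest fall of the transporters. It was 5.34, 7.19 and 8.41 CPM in vector and 1.78, 1.59 and 1.49 CPM in vector/4OHT, a 4.32-fold lower level (log2 fold change -2.11, standard error 0.24, adjusted p = 1.37e-05, edgeR's quasi-likelihood test). The knockdown libraries stayed at that lower level, at 1.26, 1.90 and 1.94 CPM with shXPO7_3 and 1.41, 2.23 and 1.15 CPM with shXPO7_5. Its antisense gene SLC38A4-AS1 had 10 to 22 counts per library beside 42 to 297 of SLC38A4, and since the strand setting of the counting is not given in the sources used here, reads of the pair cannot be told apart. SLC38A5, a glutamine and histidine carrier, fell by 0.35 on the log2 scale (25.6 to 20.2 CPM as means, adjusted p = 0.00724). SLC38A6 fell by 0.22 (adjusted p = 0.0497), and that call was lost in 10 of 14 alternative analyses.

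SLC38A2, the highest transporter per length in vector, was 554, 739.9 and 843 CPM in vector and 567, 557 and 494 CPM in vector/4OHT. The groups overlapped through vector replicate T, and the difference of -0.40 was not called (standard error 0.19, adjusted p = 0.1004, edgeR's quasi-likelihood test). It was called in 5 of 14 alternative analyses, among them that without vector replicate T (log2 fold change -0.55, adjusted p = 0.0305) and that with the GC and length offsets (-0.52, adjusted p = 6.76e-09). With the offsets 65.1% of all genes tested were called too, beside 50.9% in the analysis reported. SLC38A1, its close relative, and SLC38A7, SLC38A10, SLC43A1, SLC43A2, SLC1A2 and SLC1A3 had log2 differences of -0.13 to 0.12, were not called, and overlapped between the groups.

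Among transporters that act on lysosomes, SLC38A9, the arginine sensor of the mTORC1 pathway, was 15.1, 18.0 and 18.1 CPM in vector and 23.1, 25.2 and 24.7 CPM in vector/4OHT. It rose by 0.51 on the log2 scale without overlap (adjusted p = 0.00167, edgeR's quasi-likelihood test). SLC36A1, which moves small amino acids out of the lysosome together with protons, was 45.4, 40.3 and 36.8 CPM in vector and 67.5, 62.6 and 67.9 CPM in vector/4OHT. It was higher in each induced library, by 0.69 (adjusted p = 8.52e-05). SLC36A4, a proline and tryptophan carrier of the same family, went the other way, from 28.5 to 18.7 CPM as means (log2 fold change -0.61, adjusted p = 0.00744). SLC38A7, a lysosomal glutamine carrier, was at 52.2 and 51.3 CPM as means and was not called, with a 95% confidence interval of the log2 difference of -0.24 to 0.19. In the SLC43 family, SLC43A3, which carries nucleobases rather than amino acids, fell by 0.68 (8.37 to 5.22 CPM as means, adjusted p = 0.000603).

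Promoters were looked at because several of the surface transporters moved together. RefSeq windows of 300 bases, 250 before and 50 after each start on GRCh38.p14, were matched by symbol for 31 of the 40 members, 23 of them tested. SLC1A2, SLC3A1, SLC7A2, SLC7A3, SLC7A4, SLC7A11, SLC7A13, SLC38A3 and SLC43A3 were not matched. Both strands were searched for TGATGNAA, a form of the C/EBP-ATF response element read by ATF4. They were also searched for TGACNNNGC, the core of the antioxidant response element read by NRF2, and for TGANTCA. The last is a loose form of the AP-1 site, with any base in the middle. The response element for ATF4 was matched in 6 of the 23 tested members (SLC1A3, SLC1A4, SLC1A5, SLC3A2, SLC7A1 and SLC38A1), 3 of them called higher in OIS and 0 lower. By window, it was matched in 13.6% of the 44 windows of these members and in 3.62% of all windows. By gene, it was matched in 4.46% of all 27305 genes with a window. The 44 windows came from 23 members and all 35116 windows from 27305 genes, so the 2 ways of counting differ. The members counted had passed the filter on low counts, whereas all windows and genes were taken whatever their counts. For each motif the shares thus set unlike groups of genes side by side. The antioxidant element was matched in 7 of 23 (SLC1A3, SLC1A5, SLC3A2, SLC7A1, SLC7A5, SLC7A6 and SLC7A7), 5 called higher and 0 lower. By window the shares were 15.9% for the members and 13.3% for all, and by gene it was matched in 16.1% of all genes with a window. The loose AP-1 form was matched in 7 of 23 (SLC1A3, SLC3A2, SLC7A8, SLC36A4, SLC38A1, SLC38A9 and SLC43A2), 2 called higher and 2 lower. It was in 18.2% of the members' windows and 7.71% of all windows, and in 9.37% of all genes with a window. The SLC7A8 matches read TGATTCA, whereas each other matched member had TGACTCA or TGAGTCA. Beside these calls, 33.3% of the tested transporters were called higher and 33.3% lower, and 24.8% and 26.1% of all genes tested. The motifs were chosen with earlier results known, and a link of the matches with the calls was not tested. A match is a description of these letters and not evidence of binding. The windows of the heavy chain, its leucine light chain and the glutamine carrier are shown with their matches in capitals, because these 3 genes rose together and were the next per length after SLC38A2 in vector and vector/4OHT. The SLC7A5 window is chr16:87869458-87869757 on the minus strand. Its antioxidant element begins 2 bases before the start and runs across it. The SLC3A2 window is chr11:62881449-62881748 on the plus strand, the only one of its 3 windows with a match. This window lies inside the gene as annotated, and the window over the gene's first base is chr11:62855859-62856158. The first run in capitals of the matched window, 37 bases before its start, holds an AP-1 site within the antioxidant element. The second run, at position 38 with the start as 1, is the reverse strand of the response element for ATF4. The SLC1A5 window is chr19:46784765-46785064 on the minus strand, with the response element for ATF4 97 bases before the start. It is 1 of 3 windows of that gene, and another, chr19:46787244-46787543, holds its antioxidant element. Both lie inside the gene as annotated, and the window over the gene's first base, chr19:46788545-46788844, holds no match.
SLC7A5: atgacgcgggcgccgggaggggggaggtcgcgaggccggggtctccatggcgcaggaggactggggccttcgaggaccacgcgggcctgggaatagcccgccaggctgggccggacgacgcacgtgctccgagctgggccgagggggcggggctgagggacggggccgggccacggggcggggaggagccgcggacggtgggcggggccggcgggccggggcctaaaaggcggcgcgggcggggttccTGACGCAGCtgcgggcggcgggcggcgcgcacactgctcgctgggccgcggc
SLC3A2: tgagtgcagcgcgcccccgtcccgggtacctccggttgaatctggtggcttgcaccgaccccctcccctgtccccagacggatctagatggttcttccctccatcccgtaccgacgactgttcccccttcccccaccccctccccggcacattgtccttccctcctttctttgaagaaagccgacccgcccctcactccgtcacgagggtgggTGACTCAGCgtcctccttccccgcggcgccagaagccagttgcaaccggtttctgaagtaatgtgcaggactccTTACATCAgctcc
SLC1A5: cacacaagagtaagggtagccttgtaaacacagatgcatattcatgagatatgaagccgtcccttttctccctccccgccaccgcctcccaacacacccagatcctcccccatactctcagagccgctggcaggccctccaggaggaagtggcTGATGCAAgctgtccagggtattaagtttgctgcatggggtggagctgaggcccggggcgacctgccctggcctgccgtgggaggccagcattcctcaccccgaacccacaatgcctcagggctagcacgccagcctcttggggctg

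The genes around the transporters were described by lists chosen with earlier results of these data known. Of 27 amino acid transporters of other families, 14 were tested, and 6 were higher and 3 lower in OIS. These were 42.9% and 21.4%, beside 24.8% and 26.1% of all genes tested, and the median log2 fold change was 0.22. SLC6A15, a carrier of branched-chain amino acids and proline, was at 36.9, 43.3 and 47.3 CPM in vector and 696, 687 and 667 CPM in vector/4OHT, 16.1-fold higher (log2 fold change 4.01, standard error 0.13, adjusted p = 2.18e-10, edgeR's quasi-likelihood test). The groups lay far apart, as for SLC7A14 but in the other direction. The mitochondrial carriers SLC25A15 (ornithine) and SLC25A44 (branched-chain amino acids) rose by 0.74 and 0.64, and SLC25A29 (basic amino acids) fell by 0.97 on the log2 scale.

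Of 20 genes of the amino acid response, which ATF4 turns on when amino acids are short, 11 rose and 3 fell, with a median of 0.29. These were 55% and 15%, beside 24.8% of all genes tested that were called higher and 26.1% called lower. The shares of the lists that follow stand beside the same values, and no list was tested as a set. The pseudokinase gene TRIB3 rose by 1.24 and CTH, which makes cysteine, by 0.91, while the stress gene NUPR1 fell by 1.22 and the secreted factor STC2 by 1.19. Of 10 genes for the synthesis and use of glutathione, the product that cystine uptake by SLC7A11 feeds, 4 rose and 1 fell (40% and 10%, median 0.25). GCLC, a subunit of the rate-limiting enzyme, rose by 0.96 and the thioredoxin reductase TXNRD1 by 0.59, and GPX4, which removes lipid peroxides, fell by 0.93. The fourth named gene, GGT5, rose by 0.57 at 1.21 and 1.81 CPM as means. Its call was lost in 6 of 14 alternative analyses, among them those without vector replicate C (0.35) and without each vector/4OHT library in turn. Of 20 genes for amino acid sensing at the lysosome, 2 rose and 3 fell, and the median was 0.0098. These were 10% and 15%, both below the shares of all genes. RRAGD rose by 1.75 from a low level (0.245 to 0.804 CPM as means). It had 7, 5 and 14 counts in vector and 29, 19 and 47 in vector/4OHT. RRAGD thus passed the filter on low counts only with the induced libraries, where it was high, which limits its place among the rises. RRAGB, NPRL3 and RRAGC fell by 0.44, 0.29 and 0.29. NPRL3 lost its call in 5 of 14 alternative analyses (highest adjusted p = 0.1198), 4 of them without vector replicates A or T or vector/4OHT replicates A or T. Of 15 tested enzymes that use the transported amino acids, 2 rose and 4 fell (13.3% and 26.7%, median 0.017). The first share was below that of all genes and the second near it. KYNU, of tryptophan breakdown, rose by 3.23 (7.47 to 70.2 CPM as means), whereas GLUL (glutamine synthesis), ASS1 (arginine synthesis) and SRR (serine racemase) fell by 1.14, 1.14 and 0.79.

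The second question was whether XPO7 knockdown changed the transporters in induced cells. Each shRNA was compared with the same vector/4OHT libraries, so the 2 comparisons share their controls. With shXPO7_3, 0 of 27 transporters were called by edgeR's quasi-likelihood test, beside 0.124% of all genes, and 1 by DESeq2. At an unadjusted p under 0.05 there were 5, beside 6.41% of all genes, and 8 did not overlap with vector/4OHT, beside 14.6% of all genes. With shXPO7_5, 0 of 27 were called by edgeR's quasi-likelihood test, beside 0.589% of all genes, and 1 by DESeq2. At an unadjusted p under 0.05 there were 8, beside 21.6% of all genes, and 7 did not overlap, beside 26.8% of all genes. The median log2 difference of the transporters was 0.0082 with shXPO7_3 and 0.075 with shXPO7_5, beside -0.0031 and 0.0058 for all genes. The count for shXPO7_5 rested on 1 library, since without replicate A of shXPO7_5/4OHT 8 transporters were called, 5 higher and 3 lower. In that fit 23.0% of all genes tested were called too, so the rise is not a result about the transporters.

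**Figure D4:**
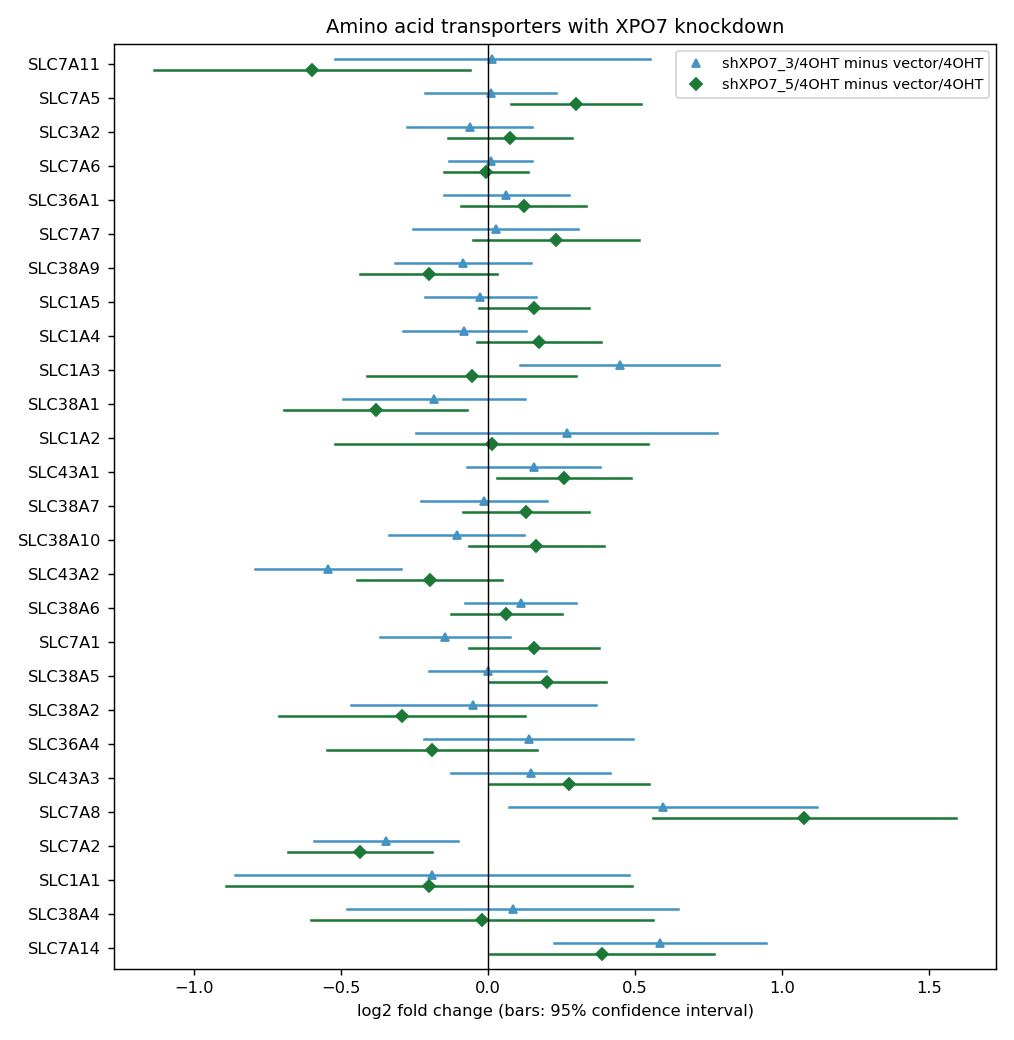
Log2 fold change of the 27 tested transporters with shXPO7_3 (triangles) and shXPO7_5 (diamonds), each against the shared vector/4OHT libraries, with 95% confidence intervals (bars), in the row order of OIS. No point was called at an adjusted p under 0.05, and the values ran from -0.54 to 0.60 with shXPO7_3 and from -0.60 to 1.08 with shXPO7_5.

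The largest differences in either direction with shXPO7_3, and the lowest adjusted p with each shRNA, were those of SLC43A2 and SLC7A8. SLC43A2, a facilitated carrier of large neutral amino acids, was 7.21, 6.80 and 6.80 CPM in vector/4OHT replicates T, A and B, 5.13, 3.92 and 5.15 CPM with shXPO7_3 and 5.79, 5.77 and 6.55 CPM with shXPO7_5. All 6 knockdown libraries were below those of vector/4OHT. The log2 differences were -0.54 (standard error 0.11, adjusted p = 0.115) and -0.20 (standard error 0.11, adjusted p = 0.282, edgeR's quasi-likelihood test), and DESeq2 called the first (-0.53, adjusted p = 0.0476). SLC7A8 was 0.519, 0.354 and 0.464 CPM in vector/4OHT, 0.768, 0.694 and 0.606 CPM with shXPO7_3 and 1.08, 0.694 and 1.09 CPM with shXPO7_5. All knockdown libraries were above vector/4OHT and at 23 to 40 counts each. The log2 differences were 0.60 (standard error 0.24, adjusted p = 0.651) and 1.08 (standard error 0.24, adjusted p = 0.065).

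SLC7A2, which fell in OIS, was at 19.8, 24.0 and 26.6 CPM with shXPO7_3 and 21.9, 24.0 and 20.4 CPM with shXPO7_5. No knockdown library reached the 27.4 to 31.8 CPM of vector/4OHT. The differences of -0.35 (adjusted p = 0.461) and -0.44 (adjusted p = 0.0982) were not called by edgeR's quasi-likelihood test, and DESeq2 called the second (-0.42, adjusted p = 0.0345). SLC38A1, the glutamine and alanine carrier, was at 103 to 110.5 CPM in vector/4OHT, 80.0 to 102 CPM with shXPO7_3 and 68.5 to 98.6 CPM with shXPO7_5, again with no overlap and no call (-0.18 and -0.38, adjusted p = 0.999 and 0.194). SLC43A1 was above vector/4OHT in all knockdown libraries (11.8 to 13.3 CPM against 13.6 to 16.7 CPM), by 0.15 and 0.26, and was not called (adjusted p = 0.999 and 0.209).

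The surface transporters that rose in OIS were not called with either shRNA. SLC3A2 was 181, 151 and 165 CPM with shXPO7_3 and 186, 158 and 203 CPM with shXPO7_5, around the 169 to 176 CPM of vector/4OHT. The 95% confidence intervals of its log2 differences were -0.27 to 0.15 and -0.14 to 0.29. SLC7A5 was 223, 179 and 209.9 CPM with shXPO7_3, on both sides of vector/4OHT (95% confidence interval -0.21 to 0.23). With shXPO7_5 it was 255, 217 and 276 CPM, above vector/4OHT in all 3 libraries, and was not called (0.30, adjusted p = 0.171). SLC1A5 was 287, 237 and 270.1 CPM with shXPO7_3 and 306, 266 and 330.3 CPM with shXPO7_5 (log2 differences -0.03 and 0.16, 95% confidence intervals -0.22 to 0.16 and -0.03 to 0.34).

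SLC7A11 was the least even of them. It was 184, 232 and 292 CPM with shXPO7_3 replicates T, A and B, and 146, 205 and 112 CPM with shXPO7_5 replicates T, A and B. The first group spanned the 203 to 250.2 CPM of vector/4OHT, and the second overlapped with it through replicate A. The log2 differences were 0.014 (95% confidence interval -0.52 to 0.55, adjusted p = 0.999) and -0.60 (95% confidence interval -1.14 to -0.06, adjusted p = 0.214, edgeR's quasi-likelihood test). The GC correlations of these libraries were 0.575, -0.344 and -0.251 for shXPO7_3 and 0.611, 0.115 and 0.787 for shXPO7_5, in the order T, A and B. The libraries with values over 0.5 were the 3 with the lowest SLC7A11 of the induced cells. With the GC and length offsets the shXPO7_5 difference was -0.12. SLC38A2 was 404, 561 and 598 CPM with shXPO7_3 and 391, 564 and 365 CPM with shXPO7_5, with the same 3 libraries lowest. Its differences of -0.05 and -0.29 were not called, and the second became 0.068 with the offsets. What part the trend had in these differences was not tested.

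**Figure D5:**
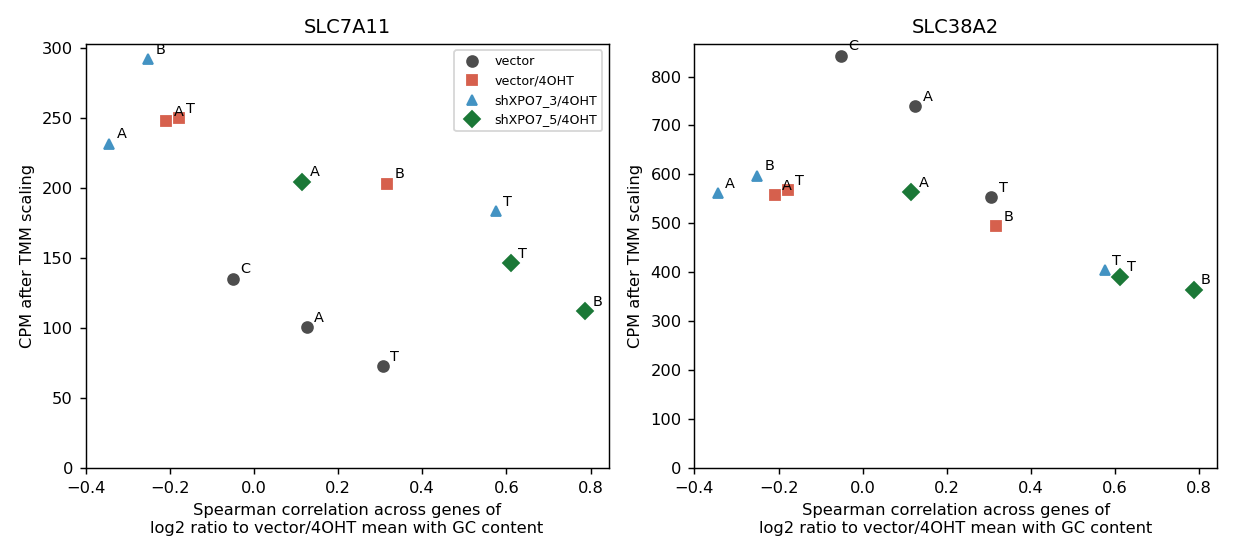
CPM of SLC7A11 (left) and SLC38A2 (right) in each of the 12 libraries against the Spearman correlation, across genes, between that library's log2 ratios to the mean of vector/4OHT and the GC content of transcripts. Letters are the replicates; the 3 induced libraries with correlations over 0.5, at the right, were the lowest induced libraries of both genes, with 112 to 184 CPM of SLC7A11 and 365 to 404 CPM of SLC38A2.

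The shRNAs were also compared with each other. Of the 27 transporters, 0 were called between shXPO7_5/4OHT and shXPO7_3/4OHT by edgeR's quasi-likelihood test, beside 0.0131% of all genes, and 0 by DESeq2. At an unadjusted p under 0.05 there were 8, beside 11.9% of all genes. XPO7 itself was higher with shXPO7_5, by 0.92 (standard error 0.072, adjusted p = 0.000387). The libraries of the 2 shRNAs did not overlap for SLC43A2, higher with shXPO7_5 by 0.34 (95% confidence interval 0.094 to 0.60), and for the glutamate carrier SLC1A3. For this comparison the share of all genes without overlap was not worked out. These 2 of 27 are therefore only a description and not a result about the transporters. SLC1A3 was 1.70, 2.05 and 1.94 CPM with shXPO7_3 and 1.25, 1.54 and 1.23 CPM with shXPO7_5, a log2 difference of -0.50 (95% confidence interval -0.85 to -0.16, adjusted p = 0.388). Neither was called.

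Among the other lists, 3 genes were called in a knockdown. With shXPO7_3 this was 1 of 14 tested transporters of other families, beside 0.124% of all genes. With shXPO7_5 it was 1 of 20 genes of the amino acid response and 1 of 10 fibroblast markers, beside 0.589% of all genes. Single calls picked from several lists are given only as a description. SLC6A6, the taurine transporter, was at 100.2 CPM with shXPO7_3 and 70.6 CPM in vector/4OHT as means (log2 fold change 0.50, standard error 0.081, adjusted p = 0.0428, edgeR's quasi-likelihood test). With shXPO7_5 it was 90.7 CPM (0.36, adjusted p = 0.0689), and all knockdown libraries of both shRNAs were above those of vector/4OHT. CHAC1, an ATF4 target that breaks down glutathione, was at 70.7 CPM with shXPO7_5 and 48.4 CPM in vector/4OHT (0.55, standard error 0.11, adjusted p = 0.0451). The fibroblast marker PDGFRB, a growth factor receptor, was at 326 and 217 CPM in the same groups (0.58, standard error 0.10, adjusted p = 0.0256). SLC6A6 lost its call in 7 of 14 alternative analyses, CHAC1 in 6 and PDGFRB in 5. Of the 20 genes of the amino acid response, 0 were called between the shRNAs by edgeR's quasi-likelihood test and 0 by DESeq2, and 11 had an unadjusted p under 0.05, beside the 11.9% of all genes given above. All 20 had a higher point value in shXPO7_5/4OHT, as had 51.5% of all genes (median log2 difference 0.22, beside 0.0096 for all genes). The GC correlations of these libraries, given above, also differed between the shRNAs, and their part in this was not tested.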

How the data were processed

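Reads of 12 RNA-seq libraries (Illumina stranded mRNA kit, total RNA) had been counted by the authors, who deposited whole-number read counts per gene without normalization. In the submitters' processing notes the tools are CASAVA 1.8.4, TopHat2 2.0.11 and featureCounts 1.18.0, with hg19 and GRCh37 as builds. How strand and multi-mapped reads were treated, and with which annotation, was not given in the sources used here, which leaves genes that overlap or resemble another uncertain. SLC7A6OS, a neighbour of SLC7A6, held 582 to 1132 counts per library, and the pseudogenes SLC7A5P1 and SLC7A5P2 held 0 to 12.

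Symbols were given to 49517 of 62069 Ensembl identifiers (99.49% of counts). The 92 ERCC spike-in entries held 0 counts and were left out. Groups came from the sample labels. Counts were fitted in R 4.3.3 with edgeR 4.0.16: filterByExpr by group, TMM scaling and 1 quasi-likelihood fit of the 4 groups to all 12 libraries with no covariates, since the paper's text names no test for differential expression. Adjustment was by Benjamini-Hochberg over 15284 genes, and genes were called at an adjusted p under 0.05. RPKM used exon lengths of GENCODE release 29 on GRCh38, matched by Ensembl identifier only. No library was a repeat of another in its group, with a chi-square per gene of 4.27 to 56.2 between pairs.

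The transporters, the gene lists and the motifs were chosen with earlier results of these data known. Every transporter is accounted for. Values in every library are given for those called with a log2 fold change of at least 1, or in a knockdown, and for SLC7A14, SLC7A11, SLC3A2, SLC7A5, SLC1A5 and SLC38A2. Values per library of other transporters were added where the text describes them, after the values were seen. From each other list, up to 4 called genes with the largest change in OIS and any called in a knockdown are named. Alternatives were scaling by RLE or by upper quartiles, a filter of 1 count only, a filter of 1 CPM in 6 libraries, the replicate letter as a block, offsets from a spline (5 degrees of freedom) of each library on transcript GC content and length, made without the groups and with values for 97.3% of genes, block and offsets together, DESeq2 1.42.0, and each library left out in turn. A planned alignment of the light chain proteins was not run.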

Additional observations from a re-analysis of the deposited data

How the results depend on the processing

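In OIS, 15 to 19 transporters were called under all 14 alternatives, beside 18 in the analysis reported, and 15 to 19 when single libraries were left out. The share of all genes called in OIS ran from 24.6% (no filter beyond 1 count) to 65.1% (GC and length offsets), beside 50.9% in the analysis reported. The calls that came and went were those of SLC38A6, SLC1A4, SLC7A8, SLC7A1 and SLC38A2, and SLC1A1 and SLC7A8 were not tested under the filter of 1 CPM in 6 libraries. Upper-quartile factors moved the median of all genes in OIS to -0.105 and the share of all calls that were higher from 48.8% to 38.3%. With that shift of all genes included, SLC1A4 was at 0.17 and lost its call, and SLC7A1 (-0.35) and SLC38A2 (-0.49) gained one. In the knockdowns, beside 0 calls in each comparison, the transporters called were 1 (shXPO7_3) and 1 (shXPO7_5) with DESeq2, 2 and 2 with the GC and length offsets, and 3, 4 and, between the shRNAs, 1 with the replicate block and the offsets together. All genes moved as well, with 0.576% and 2.79% called with DESeq2, 2.60% and 3.59% with the offsets, and 3.58%, 6.80% and 0.510% with block and offsets. The offsets called SLC7A2 and SLC43A2 lower with shXPO7_3, and with shXPO7_5 SLC7A8 higher and SLC43A2 lower. Leaving out each library in turn gave 0 with shXPO7_3 and between the shRNAs, and 0 to 8 with shXPO7_5. All 8 were called without shXPO7_5/4OHT replicate A, whose GC correlation was 0.115 beside 0.611 and 0.787, namely SLC1A5, SLC7A5, SLC7A8, SLC43A1 and SLC43A3 (higher) and SLC7A2, SLC7A11 and SLC38A1 (lower), beside 3634 of 15790 genes in all, and the cause was not tested.

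Of the genes followed through the alternatives, signs turned only for log2 differences that edgeR did not call in the analysis reported; 1 of these, SLC1A5 with shXPO7_5, was called without replicate A (0.24). With the offsets, alone and together with the replicate block, the shXPO7_5 differences became -0.0411 and -0.0409 for SLC1A5, 0.0680 and 0.0680 for SLC38A2 and -0.0744 and -0.0750 for SLC3A2, and the shXPO7_3 difference of SLC7A5 became -0.0125 and -0.0129. With no filter beyond 1 count it was -1.6e-05. Leaving out single libraries, the shXPO7_3 differences ran from -0.0946 to 0.0455 for SLC1A5, -0.162 to 0.0978 for SLC38A2, -0.171 to 0.159 for SLC7A11 and -0.0657 to 0.0934 for SLC7A5, and the shXPO7_5 difference of SLC3A2 from -0.0066 to 0.170.

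The labels do not say what a replicate letter marks. Deviations of libraries with the same letter correlated between -0.234 and 0.589 (15 pairs, median 0.108, 8 over 0.1), and those with other letters between -0.620 and 0.512 (39 pairs, median -0.0771, 14 over 0.1). Since not every pair with the same letter was over 0.1, the letters were not taken as pairs. That rule is strict for noisy values, so it does not show that the libraries are unpaired, and the block is given as an alternative. With the replicate block, 17 transporters were called in OIS and 0 in each knockdown comparison. Scaling by ERCC entries was not run because they held 0 counts. Counts of the other lists in OIS ran from 11 to 17 (amino acid response), 3 to 8 (glutathione), 3 to 11 (sensing at the lysosome), 5 to 11 (enzymes) and 8 to 11 (other transporters). At 10 to 68 counts per library, SLC1A1 and SLC7A8 limit what can be seen.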
